A study of Mus musculus with 10 samples.

Results

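The neurofilament and axonal cytoskeleton genes described here were Nefl, Nefm, Nefh, Prph, Ina, Tubb3, Map1b, Map2, Mapt and Stmn2, taken by gene name from the count tables of 10 mouse cochleae. These 10 genes were 10 of the 54532 gene rows, and all 10 passed the filter on low counts that left 18329 genes for testing. The study asked how long-term nicotinamide riboside (NR), a precursor of NAD+, changes gene expression in the aging cochlea. The 5 NR-treated mice drank NR at 7 mg/ml (24 mM) from 2 months of age for 10 months, and the 5 non-treated mice, labelled Vehicle, drank regular water. All 10 mice were 12 months old and carried the mtKeima transgene, a pH-sensitive fluorescent reporter of mitochondria, on a mixed genetic background, and the study's methods describe the strain as genotyped wild type for cadherin23. Each library was poly(A) RNA from cochlear tissue of 1 mouse, so it held neurons together with glia, hair cells, bone, muscle and other tissue.

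The axon of a neuron is filled with neurofilaments, the intermediate filaments that set its caliber, and with microtubules, the tracks of axonal transport. Neurofilaments are assembled from a light (Nefl), a medium (Nefm) and a heavy (Nefh) subunit, which copolymerize with internexin alpha (Ina) or, mainly in peripheral neurons, with peripherin (Prph). Microtubules of neurons carry the beta-III tubulin Tubb3 and are bound by Map1b and Mapt (tau), which are rich in axons, and by Map2, which is rich in dendrites, while stathmin 2 (Stmn2) binds tubulin dimers and is needed for axon maintenance and regrowth. In the cochlea these proteins mark the spiral ganglion neurons, most of which are large, myelinated type I neurons that contact inner hair cells. The few type II neurons, which contact outer hair cells, are known for their peripherin.

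Total counts per library lay between 17060379 and 24419230, and the reads of a gene in a library were at least 1957 for 9 of the 10 genes and 46 to 3045 for Prph. No pair of libraries was the same within sampling noise, since the variance between the 2 libraries of each of the 45 pairs was 12.05 to 132.3 times that of counting alone. Markers of the cochlea were present, with the hair cell gene Otof at a mean of 98.6 CPM (the count of a gene scaled to the library size) and the neuronal calcium-binding gene Calb2 at 1337 CPM. The labels give all mice as female, whereas Xist, the transcript of the inactive X chromosome, lay between 0.0882 and 0.405 CPM in the 10 libraries and 4 Y-linked genes together had 3158 to 4754 counts in each. All 10 libraries thus went against the sex label in the same way, in both groups.

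The genes lie apart in the genome except for the light and medium subunits, which are neighbors on mouse chromosome 14 (build mm10). Nefl (ENSMUSG00000022055) spans chr14:68083863-68089095 on the plus strand, and Nefm (ENSMUSG00000022054) spans chr14:68082590-68124846 on the minus strand. Nefh lies at chr11:4938754-4948064 on the minus strand, Ina at chr19:47014698-47025327 on the plus strand and Prph at chr15:99055174-99058978 on the plus strand. Tubb3 spans chr8:123411424-123422015, Mapt chr11:104231390-104332090, Map2 chr1:66175273-66442583 and Stmn2 chr3:8509360-8561606, all on the plus strand, and Map1b spans chr13:99421446-99516540 on the minus strand. In the GENCODE M21 annotation, which gave the same coordinates and merged exon lengths for 10 of the 10 genes, exons of Nefl and Nefm shared 1108 bases on opposite strands, or 32.8% of the exon bases of Nefl and 19.2% of those of Nefm. Exons of Ina shared 456 bases (14.1%) with Nt5c2 and exons of Map2 shared 124 bases (0.754%) with Gm10558, both on the opposite strand. The study gives the counting as featureCounts in its default mode and names no strand setting. Reads from such shared bases therefore cannot be assigned to a gene or its antisense partner, and the levels of Nefl and Nefm are uncertain to that extent. If such reads were left out of the counts, levels per length would be too low for both genes, and more so for Nefl.

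The 250 bases before the RefSeq start site (build GRCm38.p6) were at hand for 5 of the 10 genes, Prph, Ina, Tubb3, Map1b and Map2. The RefSeq start can differ from the edge of the gene span given above, and the windows of Tubb3 and Map2 reach into those spans. Distances to the start are to the RefSeq start. Those of 4 are printed, because Prph had the most variable transcript among the mice, Tubb3 had the smallest p-value, and Map1b and Map2 differed between the groups in opposite directions. The sequences are 5′ to 3′ on the gene's strand, and capitals mark TATAAA (the TATA box) and GGGCGG or its complement CCGCCC (the GC box), each searched on both strands.
Prph, chr15:99054924-99055173, plus strand: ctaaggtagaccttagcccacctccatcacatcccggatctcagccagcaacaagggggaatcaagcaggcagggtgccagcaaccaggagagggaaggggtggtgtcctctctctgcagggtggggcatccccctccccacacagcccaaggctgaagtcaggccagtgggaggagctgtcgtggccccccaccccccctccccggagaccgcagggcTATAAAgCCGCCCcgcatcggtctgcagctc
Tubb3, chr8:123411303-123411552, plus strand: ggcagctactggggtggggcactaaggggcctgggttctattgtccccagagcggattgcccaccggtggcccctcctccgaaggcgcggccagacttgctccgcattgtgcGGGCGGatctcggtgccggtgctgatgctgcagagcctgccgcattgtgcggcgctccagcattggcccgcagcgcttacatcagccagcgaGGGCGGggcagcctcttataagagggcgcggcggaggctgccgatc
Map1b, chr13:99516603-99516852, minus strand: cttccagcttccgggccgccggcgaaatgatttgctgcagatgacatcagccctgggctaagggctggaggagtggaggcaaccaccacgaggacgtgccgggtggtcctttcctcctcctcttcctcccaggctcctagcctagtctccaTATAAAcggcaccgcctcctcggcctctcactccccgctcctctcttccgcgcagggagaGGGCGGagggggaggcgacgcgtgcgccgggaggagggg
Map2, chr1:66175079-66175328, plus strand: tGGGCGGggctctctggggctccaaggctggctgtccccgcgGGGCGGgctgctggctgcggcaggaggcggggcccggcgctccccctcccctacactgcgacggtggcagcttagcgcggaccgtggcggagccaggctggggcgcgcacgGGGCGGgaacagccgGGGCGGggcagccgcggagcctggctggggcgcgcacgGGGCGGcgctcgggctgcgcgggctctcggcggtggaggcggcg
TATAAA began 31 bases before the start in Prph and 99 bases before it in Map1b, and it was not in these windows of Tubb3, Map2 and Ina. Among 32851 promoters of that length, 12.4% held it. GGGCGG was in all 5 windows, once in Prph and Map1b, 2 times in Tubb3 and Ina and 5 times in Map2, against 32.7% of all promoters with at least 1 match. CCAAT, on either strand, was in the window of Tubb3, 77 bases before the start, and in 33.8% of all promoters. CANNTG (the E-box) was in those of Map1b and Ina, 213 and 135 bases before the start, and in 66.2% of all promoters. The GC content was 65.2% in Prph, 66.4% in Map1b, 68.0% in Tubb3, 70.8% in Ina and 81.2% in Map2, above the median of 52.4% over all promoters. These matches describe the letters of the windows and were not tied to the counts.

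Per length of transcript, the neurofilament subunits and Tubb3 were the most abundant of the 10 genes. The mean level over the 10 mice, in RPKM (CPM divided by the merged exon length in kilobases), was 333 for Nefh, 220 for Nefm, 174 for Nefl and 164 for Tubb3. Below them stood Map1b at 49.2, Ina at 41.7, Prph at 28.0, Stmn2 at 24.3, Mapt at 21.0 and Map2 at 10.9 RPKM. Nefh was above Nefm and Nefm above Nefl in 10 of 10 mice. The lengths used for Nefl and Nefm include the exon bases that the 2 genes share, so the order of Nefh, Nefm, Nefl and Tubb3 is uncertain to that extent. Nefl and Tubb3 overlapped across mice, with Nefl above Tubb3 in 7 of 10. Map1b and Ina (Map1b above in 8 of 10) and Stmn2 and Mapt (Stmn2 above in 8 of 10) overlapped too. The order of these neighbors within a mouse was not tested. Tubb3 was above Nefl in NR-treated mice 1, 3 and 5 and in no non-treated mouse. Prph ranged from 1.02 to 73.5 RPKM and overlapped Ina, Map1b, Stmn2, Mapt and Map2. Map2 stayed at or below 13.4 RPKM in every library and Mapt at or above 16.3 RPKM. A merged exon length counts the exons of all isoforms, and Map2 and Map1b have the longest, at 16449 and 15846 bases.

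**Figure D1:**
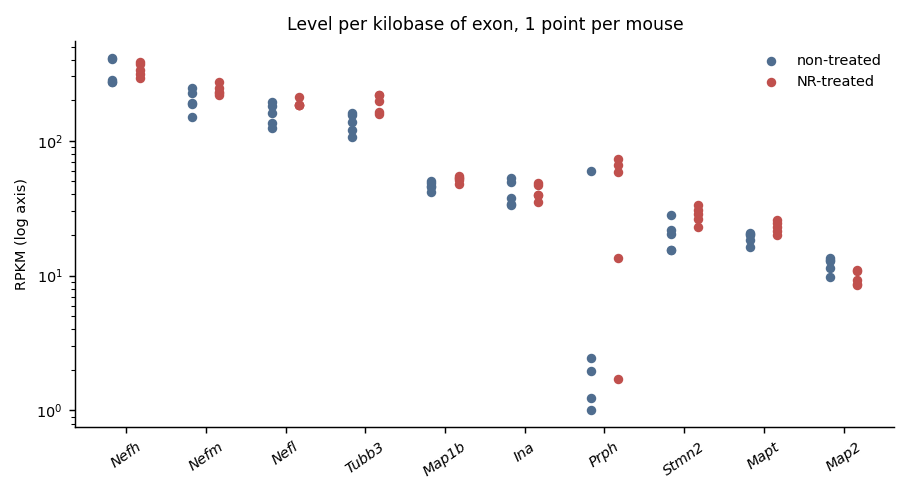
Level of each gene per length of transcript, in RPKM on a log axis, with 1 point per mouse and NR-treated and non-treated mice in different colors. Nefh, Nefm, Nefl and Tubb3 lie at or above 107 RPKM in every mouse, and Prph spans 1.02 to 73.5 RPKM.

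Compared between the groups, 9 of the 10 genes had a higher mean level in NR-treated mice and 1, Map2, a lower one, and no gene passed the adjustment for multiple testing. In the edgeR quasi-likelihood test, 4 genes (Tubb3, Mapt, Stmn2 and Map1b) were higher and 1 (Map2) was lower at an unadjusted p below 0.05. Among all 18329 tested genes, 886 (4.83%) were higher, 894 (4.88%) were lower and 1780 (9.71%) differed in either direction at that threshold. The median log2 fold change, as NR-treated over non-treated, was 0.26 over the 10 genes and -0.01 over all tested genes, of which 47.1% had a positive value. At a Benjamini-Hochberg adjusted p of 0.05 the edgeR quasi-likelihood test called 0 of the 10 genes and 0 of all genes (1780 of all genes at the unadjusted threshold), whereas the DESeq2 Wald test called 105 genes, none of them among the 10. At an unadjusted p below 0.05 the DESeq2 Wald test had 6 of the 10 genes higher, Nefl and Nefm among them, and 1 lower. The groups overlapped for all 10 genes, whereas 1.65% of all tested genes had groups that did not overlap, 0.769% with NR-treated mice higher and 0.878% with NR-treated mice lower. Because a cochlea is a mixture of cells, fewer or more neurons in a sample and less or more RNA per neuron cannot be told apart in these values. Nothing in the labels ties libraries to litters, cages or extraction days. The p-values therefore take the 10 mice as independent, and effects shared within a litter, cage or day could not be checked.

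**Figure D2:**
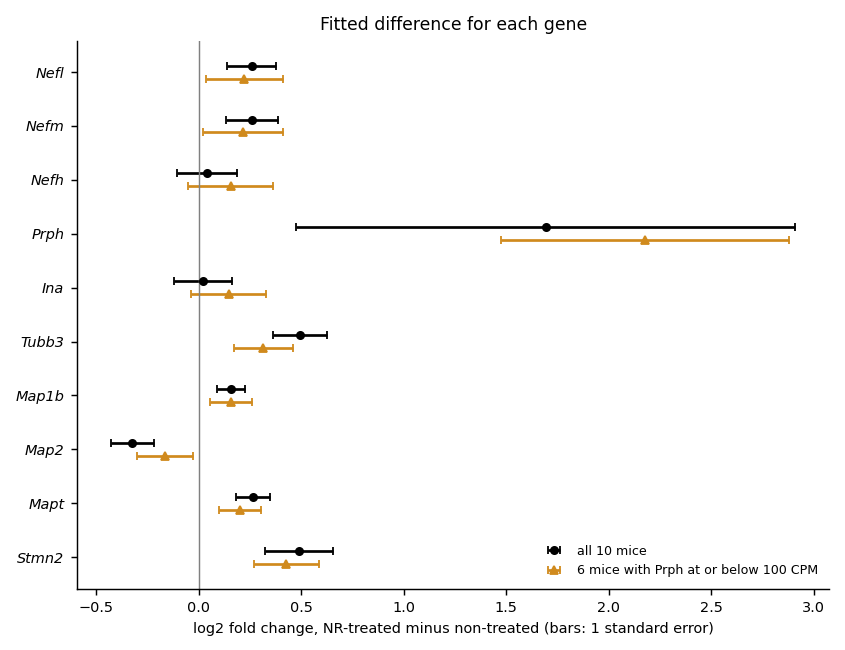
Log2 fold change of each gene, NR-treated over non-treated, from the edgeR quasi-likelihood fit, with bars of 1 SE, in all 10 mice and in the 6 mice with Prph at or below 100 CPM. In all 10 mice the values are positive for 9 genes and negative for Map2, and Prph has by far the widest bar (SE 1.22).

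The light and medium neurofilament subunits were higher in NR-treated mice by about the same amount, but not past the threshold. Nefl was at 624, 620, 711, 621 and 626 CPM in NR-treated mice 1 to 5 and at 545, 609, 417, 457 and 653 CPM in non-treated mice 1 to 5. The NR-treated mice lay close together apart from mouse 3, which was the highest of all, and non-treated mice 3 and 4 were the lowest. The mean was 641 ± 39.4 CPM (SD, n = 5) against 536 ± 99.2 CPM (SD, n = 5). In log2 terms the fold change was 0.26 (SE 0.12, 95% confidence interval -0.003 to 0.52, unadjusted p = 0.0523, adjusted p = 0.517, edgeR quasi-likelihood test). The exact two-sided permutation test on log2 CPM, which cannot give less than 0.00794 for 5 against 5, gave p = 0.0873.

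Nefm, whose tail is phosphorylated as axons widen, was at 1305, 1272, 1583, 1435 and 1333 CPM in NR-treated mice 1 to 5 and at 1104, 1298, 874, 1078 and 1434 CPM in non-treated mice 1 to 5. As for Nefl, NR-treated mouse 3 was the highest and non-treated mouse 3 the lowest, and the groups overlapped. The log2 fold change was 0.26 (SE 0.13, unadjusted p = 0.0649, adjusted p = 0.541, edgeR quasi-likelihood test), with an exact permutation p = 0.0714. Both subunits fell below an unadjusted p of 0.05 with the DESeq2 Wald test (unadjusted p = 0.0371 for Nefl and 0.0440 for Nefm), without a filter on low counts (edgeR unadjusted p = 0.0331 and 0.0424), and when non-treated mouse 2 or non-treated mouse 5 was left out. Without mouse 2 the edgeR values were 0.32 for Nefl (unadjusted p = 0.0251) and 0.32 for Nefm (unadjusted p = 0.0375), and without mouse 5 they were 0.34 (unadjusted p = 0.0122) and 0.35 (unadjusted p = 0.0142).

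The heavy subunit showed no such difference. Nefh was at 1244, 1490, 1328, 1525 and 1162 CPM in NR-treated mice 1 to 5 and at 1132, 1634, 1082, 1087 and 1626 CPM in non-treated mice 1 to 5. The highest mice, 2 and 5, and the lowest, 3 and 4, were both in the non-treated group, so the NR-treated values sat inside the range of the non-treated ones. Its log2 fold change was 0.04 (95% confidence interval -0.28 to 0.36, edgeR unadjusted p = 0.785), an interval that still holds the values of Nefl and Nefm. Ina, the internexin that can take a place in the same filament, had a log2 fold change of 0.02 (95% confidence interval -0.29 to 0.33, edgeR unadjusted p = 0.887), with levels of 114 to 157 CPM in NR-treated and 109 to 172 CPM in non-treated mice. The sign of Nefh and Ina depended on single libraries, as their fold changes ran from -0.02 to 0.14 and from -0.04 to 0.13 when each mouse was left out in turn.

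All 3 subunits varied less among NR-treated than among non-treated mice. The coefficient of variation was 6.15% against 18.5% for Nefl, 9.11% against 18.6% for Nefm and 11.6% against 22.2% for Nefh, and this difference in spread was not tested. It was not particular to the subunits, with 13.19% against 21.85% for Ina and 14.55% against 25.67% for Stmn2. Of the 10 genes, only Mapt varied more among NR-treated mice (10.01% against 9.296%). Together the 3 subunits took 0.316% to 0.365% of all counts in NR-treated and 0.240% to 0.369% in non-treated mice. The 10 genes together took 0.508% to 0.574% and 0.384% to 0.540%.

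**Figure D3:**
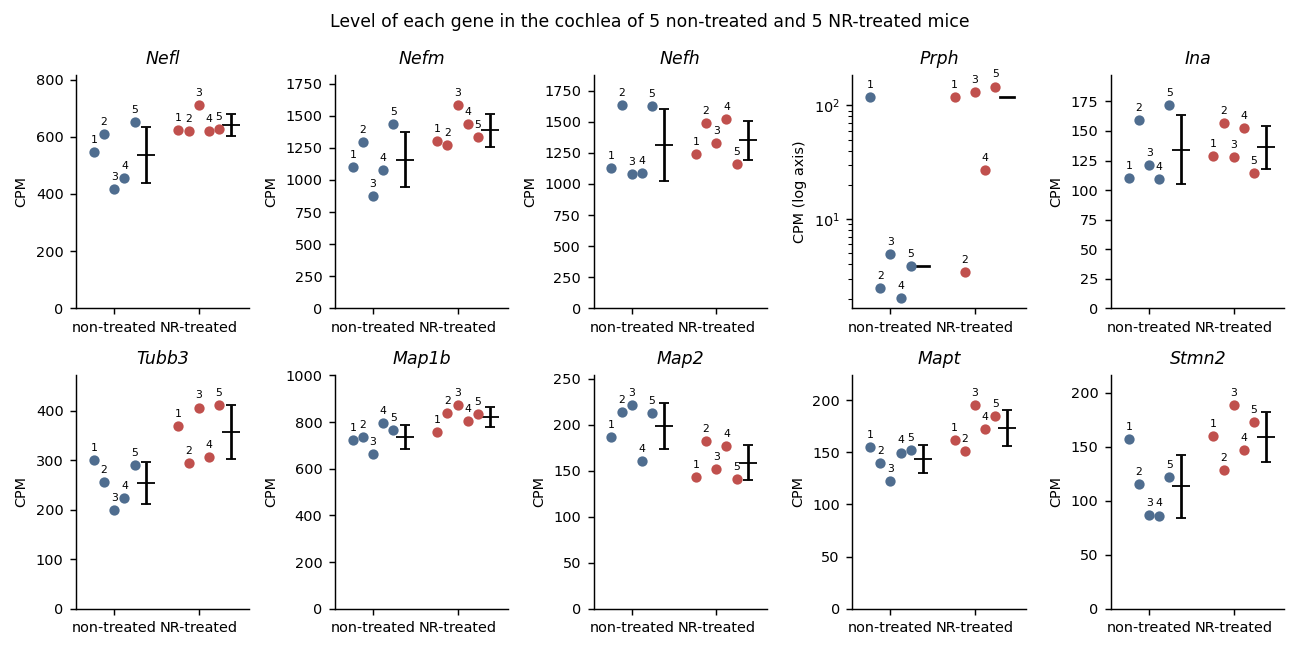
Level of each of the 10 genes in CPM in the 5 NR-treated and the 5 non-treated mice, with numbers for the mice and black bars for the mean and SD of each group. Prph is drawn on a log axis with a line at the median, and the groups overlap in every panel.

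Ratios within a mouse do not depend on the scaling of the library, and for Nefh and Ina over Nefl they separated the mice in another way than the treatment did. Nefm over Nefl, per length, was nearly constant, with a mean of 1.26 (SD 0.062, 5 mice) under NR and 1.26 (SD 0.0739, 5 mice) without it. The size of each ratio over Nefl depends on how reads from the exon bases it shares with Nefm were counted. Nefh over Nefl was 1.69, 2.03, 1.58, 2.08 and 1.57 in NR-treated mice 1 to 5 and 1.76, 2.27, 2.20, 2.01 and 2.11 in non-treated mice 1 to 5. The same 4 mice, NR-treated 1, 3 and 5 and non-treated 1, were the lowest in this ratio. Ina over Nefl was also lowest in these 4 mice, at 0.188 to 0.215 against 0.249 to 0.303 in the other 6. Map2 over Map1b, described with Map2, instead differed more between the groups.

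**Figure D4:**
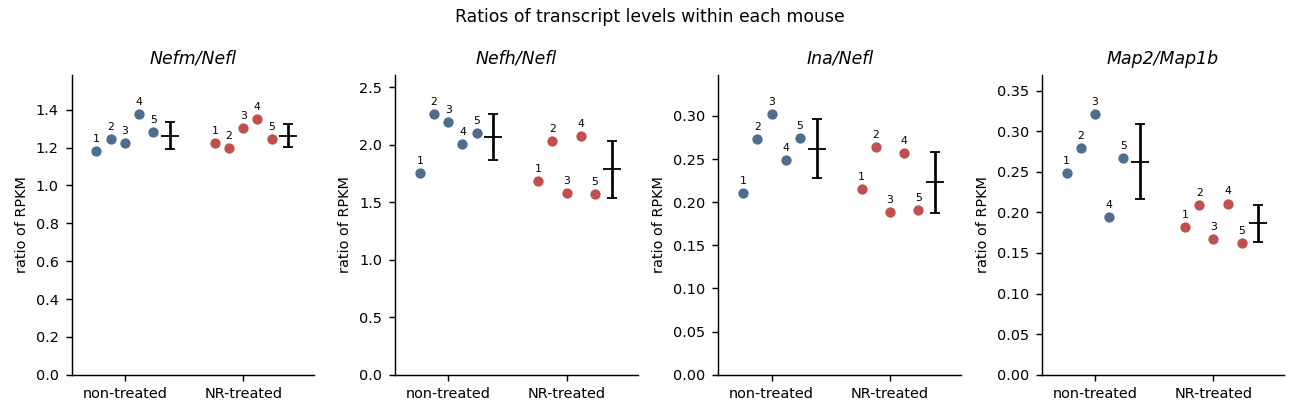
Ratios of 2 genes within each mouse, from levels per length (RPKM), with 1 numbered point per mouse and a bar for the mean and SD of each group. Nefm over Nefl stays between 1.18 and 1.38 in all mice, and Map2 over Map1b is lower on average in NR-treated mice (0.186 against 0.262).

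Prph was the most variable of the 10 genes, high in 4 mice, below 5 CPM in 5 and in between in NR-treated mouse 4, and the 4 high mice were those with low Nefh over Nefl. It was at 118, 3.44, 132, 26.8 and 147 CPM in NR-treated mice 1 to 5 and at 120, 2.47, 4.94, 2.03 and 3.90 CPM in non-treated mice 1 to 5. High values occurred in both groups, in NR-treated mice 1, 3 and 5 and in non-treated mouse 1, and the highest mouse was 72.4 times the lowest. The fold change between groups was therefore uncertain, at a log2 value of 1.69 (SE 1.22, 95% confidence interval -0.99 to 4.37, edgeR unadjusted p = 0.192), with an exact permutation p = 0.119. Leaving out non-treated mouse 1 moved it to 4.67 (edgeR unadjusted p = 0.0006, adjusted p = 0.151).

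The 4 libraries with Prph above 100 CPM also stood apart in other genes, which were chosen after the values of Prph were seen. The genes whose pattern over the 10 mice was nearest to that of Prph were Slit1, Avil, P2rx3, Tlx2 and Tusc5, with a root mean square difference of centered log2 levels of 0.509 to 0.741 against a median of 2.44 over all genes. P2rx3, an ATP-gated channel of sensory neurons, was at 46.4 to 61.8 CPM in the 4 libraries and at 1.17 to 4.54 CPM in the other 6. Avil, an actin-binding protein of peripheral sensory neurons, was at 63.6 to 83.4 CPM against 2.29 to 20.4 CPM. NR-treated mouse 4, which is among the other 6, was again in between for Avil (20.4 CPM), Tusc5 (16.5 CPM) and Slit1 (3.89 CPM). Whether these libraries held more tissue of sensory ganglia other than the spiral ganglion was not tested.

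**Figure D5:**
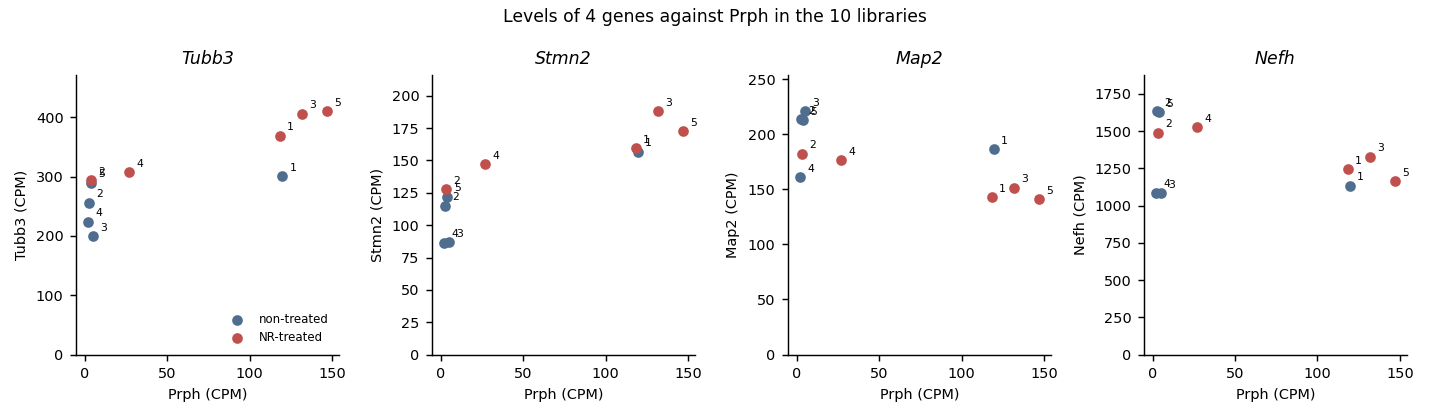
Levels of Tubb3, Stmn2, Map2 and Nefh against that of Prph in the 10 libraries, all in CPM, with 1 numbered point per mouse in the color of its group. The 4 libraries with Prph at 118 to 147 CPM, 3 of them NR-treated and 1 non-treated, lie to the right of the other 6, which reach at most 26.8 CPM.

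Autonomic neurons are another kind of cell that makes peripherin, and their markers were partly present. Slc18a2, the vesicular monoamine transporter and the most abundant of them, had a mean of 7.74 CPM, Ddc 2.70 CPM, Npy 1.66 CPM and Chrna3 1.16 CPM, while Dbh, the enzyme that makes noradrenaline, reached at most 4 reads in a library, Hand2 4 and Chat, which makes acetylcholine, 1. The 11 autonomic markers examined together had 14.3 to 18.2 CPM in NR-treated and 11.6 to 16.1 CPM in non-treated mice. Of the 6 that could be tested, 3 (Ddc, Chrnb4 and Chrna3) were higher in NR-treated mice at an unadjusted p below 0.05. Without the 4 libraries with high Prph the number higher was 1. At that threshold 4.83% of all tested genes were higher in all 10 mice. The other tested markers, Slc6a2, Slc18a2 and Npy, had log2 fold changes of 0.45, 0.12 and 0.11 and did not pass it. The markers of type II spiral ganglion neurons examined (Th, Etv4 and Gata3) had 62.9 to 84.4 CPM in NR-treated and 61.4 to 100.4 CPM in non-treated mice, with 0 of 3 past that threshold (median log2 fold change 0.20). Most of this sum was Gata3, at a mean of 52.6 CPM against 13.9 CPM for Etv4 and 7.26 CPM for Th. The sum was highest in non-treated mice 3 and 4 (93.9 and 100.4 CPM), which also had the highest hair cell sums. It was 62.9 to 68.0 CPM in the 4 libraries with high Prph and 61.4 to 100.4 CPM in the others. Which cells the Gata3 transcripts came from was not tested. The log2 fold change was negative for Gata3 (-0.35) and positive for Etv4 (0.20) and Th (0.48). Because 3 of the 4 libraries with high Prph were NR-treated, the log2 fold changes and counts are given with and without them, and the part of the cells that carry Prph in those results was not tested beyond that. Without them Nefl was at 0.22 (edgeR unadjusted p = 0.279), Nefm at 0.21 (edgeR unadjusted p = 0.311), Nefh at 0.16 (edgeR unadjusted p = 0.477) and Ina at 0.15 (edgeR unadjusted p = 0.453), so that Nefl and Nefm were lower and Nefh and Ina higher than in all 10 mice. That fit left 2 NR-treated against 4 non-treated mice, and fewer of all tested genes passed the unadjusted threshold in it, in either direction. A smaller count in that fit therefore does not by itself set a list apart.

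Tubb3, the tubulin isotype of neurons, had the smallest p-value of the 10 genes. It was at 370, 294, 406, 307 and 411 CPM in NR-treated mice 1 to 5 and at 301, 256, 200, 224 and 290 CPM in non-treated mice 1 to 5. NR-treated mouse 2 lay below the highest non-treated mouse, and the other 4 NR-treated mice lay above all non-treated mice. The mean was 358 ± 54.6 CPM (SD, n = 5) against 254 ± 42.8 CPM (SD, n = 5), which the edgeR fit gave as 1.41-fold higher. Its log2 fold change was 0.49 (SE 0.13, 95% confidence interval 0.20 to 0.79, unadjusted p = 0.00355, adjusted p = 0.407, edgeR quasi-likelihood test), with an exact permutation p = 0.0159. Leaving out each mouse in turn kept it between 0.43 and 0.57, with an unadjusted p below 0.05 in 10 of 10 cases. Without the 4 libraries with high Prph it was 0.32 (edgeR unadjusted p = 0.0627), from 294 and 307 CPM in 2 NR-treated mice against 200 to 290 CPM in 4 non-treated mice.

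Stmn2 followed a similar order. It was at 159, 128, 188, 147 and 173 CPM in NR-treated mice 1 to 5 and at 157, 115, 87.0, 86.3 and 122 CPM in non-treated mice 1 to 5. Non-treated mouse 1 lay among the NR-treated mice, and non-treated mice 3 and 4 were far below them. The log2 fold change was 0.49 (SE 0.16, 95% confidence interval 0.13 to 0.85, unadjusted p = 0.0127, adjusted p = 0.440, edgeR quasi-likelihood test), a 1.40-fold difference with an exact permutation p = 0.0317. Without the 4 libraries with high Prph it was 0.43 (edgeR unadjusted p = 0.0325), with 128 and 147 CPM in 2 NR-treated mice and 86.3 to 122 CPM in 4 non-treated mice. Within a mouse, Stmn2 over Tubb3 per length averaged 0.149 (SD 0.0081, 5 mice) under NR and 0.147 (SD 0.0166, 5 mice) without it.

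The microtubule-associated proteins did not move as 1 group. Mapt was at 162, 151, 195, 172 and 184 CPM in NR-treated mice 1 to 5 and at 155, 140, 122, 150 and 152 CPM in non-treated mice 1 to 5. NR-treated mouse 2 lay within the non-treated range, and the other 4 lay above it. The log2 fold change of Mapt was 0.27 (SE 0.08, unadjusted p = 0.00861, adjusted p = 0.431, edgeR quasi-likelihood test), with an exact permutation p = 0.0238. Without the 4 libraries with high Prph it was 0.20 (edgeR unadjusted p = 0.0918).

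Map1b, which stabilizes microtubules in growing axons, was at 756, 841, 872, 807 and 836 CPM in NR-treated mice 1 to 5 and at 722, 737, 662, 796 and 768 CPM in non-treated mice 1 to 5. The difference was small, at 1.12-fold, with NR-treated mouse 1 below the highest non-treated mouse 4. Its log2 fold change was 0.16 (SE 0.07, unadjusted p = 0.0427, adjusted p = 0.4997, edgeR quasi-likelihood test), with an exact permutation p = 0.0317. The unadjusted p rose above 0.05, to at most 0.0767, when NR-treated mouse 2, 3 or 5 or non-treated mouse 1 or 3 was left out, and it was 0.172 in the edgeR fit without the 4 libraries with high Prph (log2 fold change 0.16).

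Map2, the dendritic member of this family, was the gene with the lower level in NR-treated mice. It was at 143, 183, 152, 177 and 141 CPM in NR-treated mice 1 to 5 and at 186, 214, 221, 161 and 213 CPM in non-treated mice 1 to 5. NR-treated mice 1, 3 and 5 lay below all non-treated mice, and NR-treated mice 2 and 4 lay above non-treated mouse 4. The log2 fold change was -0.32 (SE 0.10, 95% confidence interval -0.55 to -0.10, unadjusted p = 0.00971, adjusted p = 0.433, edgeR quasi-likelihood test), with an exact permutation p = 0.0317. The 3 lowest mice were the NR-treated mice with high Prph, while non-treated mouse 1, which also had high Prph, was above both other NR-treated mice. The value without the 4 libraries with high Prph was -0.17 (edgeR unadjusted p = 0.259), with 177 and 183 CPM in NR-treated and 161 to 221 CPM in non-treated mice. Map2 over Map1b within a mouse averaged 0.186 (SD 0.0228, 5 mice) under NR and 0.262 (SD 0.0463, 5 mice) without it, with the groups overlapping through non-treated mouse 4 (0.195).

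Among other tubulins, 4 of 11 genes were higher and 0 lower in NR-treated mice at an unadjusted p below 0.05, and 10 of 11 had a positive log2 fold change (median 0.26). Over all tested genes, 4.83% were higher and 4.88% lower at that threshold. The counts of this list and of the lists below were not tested against these shares. Tubb2a, a neuron-rich beta-tubulin, had a log2 fold change of 0.52 (SE 0.13, edgeR unadjusted p = 0.00224), at 141 ± 25.7 CPM (SD) against 98.0 ± 13.7 CPM (SD). Tubb4a was at 0.36 (SE 0.11), Tubb6 at 0.45 (SE 0.16) and the most abundant, Tuba1b, at 0.08 (SE 0.09). Near-identical tubulin genes share sequence, so reads may be split among them. Without the 4 libraries with high Prph, where fewer of all tested genes passed too, the number higher was 1.

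The other microtubule-associated proteins and stathmins had 5 of 25 genes higher and 1 lower at that threshold, with a median log2 fold change of 0.04. Of all tested genes, 4.83% were higher and 4.88% lower. Map6, which stabilizes microtubules, was at 113 ± 5.48 CPM (SD) against 91.1 ± 14.0 CPM (SD), and its NR-treated values lay above all non-treated ones, as 0.769% of all genes did. Its log2 fold change was 0.31 (SE 0.10, edgeR unadjusted p = 0.00749). Dpysl3, a collapsin response mediator of growth cones, was at 0.35 (SE 0.13) and Tppp, a tubulin polymerization protein, at 0.23 (SE 0.09). The most abundant gene, Map1a, at 1532 CPM, was at 0.02 (SE 0.11). Without the 4 libraries with high Prph, 1 gene of this list was higher and 0 lower.

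Axonal transport motors had 3 of 20 genes higher and 1 lower, and a median log2 fold change of 0.06. The shares over all tested genes were 4.83% higher and 4.88% lower. Dync1i2, a dynein intermediate chain, was at 0.18 (SE 0.06), the kinesin heavy chain gene Kif5c at 0.24 (SE 0.10), the dynein adaptor Bicd2 at -0.12 (SE 0.05) and the most abundant motor, Kif1a, at 0.19 (SE 0.11, edgeR unadjusted p = 0.111). Of the genes of the axonal membrane skeleton and growth, 2 of 16 were higher and 1 was lower (median 0.03). L1cam, an adhesion molecule of axons, was at 0.47 (SE 0.14), Cntn1 at 0.18 (SE 0.08), Nrcam at -0.22 (SE 0.09) and the spectrin Sptan1, the most abundant, at 0.05 (SE 0.07).

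The kinases and turnover factors of neurofilaments had 2 of 12 genes higher and 0 lower (median 0.06), where 4.83% of all tested genes were higher and 4.88% lower. Cdk5, which phosphorylates neurofilament tails and tau, was at 0.21 (SE 0.06, edgeR unadjusted p = 0.00718), and Uchl1, a neuronal ubiquitin hydrolase and the most abundant of the list, was at 443 ± 89.3 CPM (SD) against 280 ± 80.3 CPM (SD), a log2 fold change of 0.66 (SE 0.21, edgeR unadjusted p = 0.00811). Of the axon survival genes, Sarm1, the NAD+ hydrolase of axon degeneration, was at 0.32 (SE 0.11) and was the only one of 8 past the threshold (1 higher, 0 lower, median -0.03), and the most abundant, the ubiquitin ligase gene Mycbp2, was at -0.06 (SE 0.06). Intermediate filaments and linkers of other cells had 1 of 9 higher and 0 lower (median 0.20). That gene was the muscle filament gene Des, at 1.63 (SE 0.62), while the most abundant, the linker Dst, was at 0.09 (SE 0.07). With the 4 libraries with high Prph left out, 2 genes of the membrane skeleton and growth list, 1 motor gene and 0 genes of the turnover, survival and filament lists were higher, and 0 genes of these 5 lists were lower.

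Markers of the cells that a cochlear sample can hold were set beside these values. The 13 spiral ganglion markers summed to 3962 to 4991 CPM in NR-treated and 3454 to 5465 CPM in non-treated mice, with 2 higher (Pou4f1 and Rbfox3) and 0 lower at an unadjusted p below 0.05 and a median log2 fold change of 0.07. At that threshold 4.83% of all tested genes were higher and 4.88% lower. The 11 Schwann cell markers, at 6618 to 8388 CPM and 6764 to 7681 CPM, had 0 higher and 1 lower (Sox10), and the 8 hair cell markers, at 124 to 224 CPM and 130 to 390 CPM, had 0 of 8 past the threshold (median -0.46). Of these 8, 0 had a positive log2 fold change, and the highest sums were in non-treated mice 3 and 4 (347 and 390 CPM). At that threshold 2 of them were lower with the DESeq2 Wald test, as were 1021 of all 33153 genes tested there, and 2 without a filter on low counts. The central glia markers, at 413 to 641 CPM and 171 to 670 CPM, and the central neuron markers, at 50.5 to 74.5 CPM and 55.0 to 86.1 CPM, had 0 of 8 and 0 of 4 tested genes past it. The central glia sum of 171 CPM was that of non-treated mouse 1, and the other non-treated mice lay at 519 to 670 CPM. With mouse 1 left out, 4 central glia markers, and 1059 of all 18535 tested genes, were lower at that threshold. Skeletal muscle and adipocyte markers differed between the groups. Of 7 tested muscle markers 5 were higher (median 3.84), with sums of 9.20, 22.8, 796, 74.3 and 604 CPM in NR-treated mice 1 to 5 and 6.73 to 68.0 CPM in non-treated mice, so that NR-treated mice 3 and 5 stood far above the rest and mice 1 and 2 lay within the non-treated range. Of 5 tested adipocyte markers 4 (Cidec, Plin1, Cfd and Pck1) were higher (median 3.04), with sums of 37.0 to 97.5 CPM against 6.68 to 23.5 CPM that did not overlap. The study had already named Cidec, Plin1 and Pck1 among its most changed genes from these same libraries. Their difference was therefore known when the list was made and is no separate evidence about tissue. The remaining tested marker, Adipoq, was at 0.70 (SE 0.41, edgeR unadjusted p = 0.114). When the 4 libraries with high Prph were left out, 5 muscle, 4 adipocyte, 2 central neuron and 0 spiral ganglion markers were higher, 1 Schwann cell and 1 central glia marker were lower, and 0 hair cell markers passed the threshold. The part of these tissues in the values of the 10 genes was not tested.

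Over the 10 mice, the genes whose pattern was most like the mean of Nefl, Nefm and Nefh were Nrg1, Fam155a, Bcan, Kcns1 and Elavl3, with root mean square differences of centered log2 levels of 0.0471, 0.0556, 0.0566, 0.0575 and 0.0611. The median over all tested genes was 0.292. Among the other genes described here the distance was 0.166 for Map1b, 0.167 for Ina, 0.181 for Mapt, 0.254 for Tubb3, 0.293 for Stmn2, 0.332 for Map2 and 2.50 for Prph. By this distance Stmn2 and Map2 were as far from the subunits as a typical gene of the table or farther, and Tubb3 was somewhat nearer. The distance depends on how widely a gene varied as well as on the order of the mice, so it does not rank likeness of order alone. The SD of log2 CPM over the 10 mice was 0.119 for Map1b, 0.242 for Map2, 0.344 for Tubb3 and 0.389 for Stmn2.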

How the data were processed

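RNA was measured in cochleae of 10 mtKeima mice, 5 NR-treated and 5 non-treated, with 1 library per mouse and groups taken from the treatment label. The authors deposited raw read counts per gene, 1 table per mouse. Per the labels and the submitters' processing notes, reads were trimmed with fastp, aligned to mm10 with STAR 2.6.1d and counted with featureCounts 1.5.0. The annotation release is not given in the sources used here. Here, the counts were scaled with TMM and fitted with edgeR 4.0.16 (glmQLFit and glmQLFTest, R 4.3.3) after filterByExpr, without covariates, over all 18329 genes that passed, with Benjamini-Hochberg adjustment, and the procedure was tested on simulated data. Levels are CPM on the TMM-scaled library sizes (factors 0.953 to 1.02) and RPKM on the exon lengths in the tables, and depth limits precision only for rare transcripts. Single genes were also compared by an exact two-sided permutation test over 252 labelings. Alternatives were DESeq2 size factors, the DESeq2 1.42.0 Wald test, no filter (at least 1 read), the replicate number as a block, and leaving out each mouse.

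The genes and lists were chosen with earlier results of these data known. Named in each list were the gene with the highest mean CPM and up to 3 with the smallest unadjusted p below 0.05, and the 5 genes nearest to the neurofilament subunits. The fit without the libraries with Prph above 100 CPM, and the genes nearest to Prph, were chosen after seeing the data, as were hair cell and neuronal examples and the marker genes named for low reads. Promoters are from RefSeq (GRCm38.p6). The study's methods give male mice and the labels female. No set test was run. Of the marker lists, 2 genes are not reported here.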

Additional observations from a re-analysis of the deposited data

Results flagged for a closer look

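In each of the 10 genes and both groups, the gap of the most extreme mouse to its nearest neighbor on the log2 CPM scale was set against the range of the group (Dixon's ratio, critical value 0.71 for 5 mice). Of the 20 sets of 5 mice examined, 2 passed it, and chance passes about 1 in 20. Nefl in NR-treated mouse 3, at 711 CPM, had a ratio of 0.933, since its log2 level of 9.47 stood above 9.29 in the next mouse while the other 4 mice lay close together. Prph in non-treated mouse 1, at 120 CPM, had a ratio of 0.786, with a log2 level of 6.90 against 2.33 in the next mouse.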

How the results depend on the processing

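With another normalization (DESeq2 size factors), 906 genes were higher, 870 lower and 0 called at the adjusted threshold, with 5 of the 10 cytoskeleton genes higher and 1 lower. The DESeq2 Wald test called 105 genes at the adjusted threshold, where edgeR called 0, and without a filter on low counts 1414 genes in place of 886 were higher. Without the 4 libraries with Prph above 100 CPM, chosen after seeing the data and leaving 2 mice against 4, 359 genes were higher and 353 lower, and 2 of the 10 genes (Stmn2, and Prph, whose own values chose the libraries) were higher and 0 lower. Leaving out each mouse in turn gave 669 to 1414 genes higher (1414 without NR-treated mouse 2), 484 to 1059 lower (521, 484 and 558 without NR-treated mice 1 and 3 and non-treated mouse 3) and 0 to 1 called at the adjusted threshold (1 without NR-treated mouse 2). Of the 10 genes, 3 to 6 were then higher and 1 lower. Nefh ranged from -0.017 to 0.14 and Ina from -0.042 to 0.13, changing sign, and the other 8 genes kept their direction in all fits run. The replicate numbers did not pair the mice, since correlations of same-numbered mice ran from -0.22 to 0.17 and 1 of 5 was highest with its own number. A replicate block gave 879 genes higher, 776 lower and 0 called, with 4 of the 10 genes higher and 1 lower. It brought Prph below an unadjusted p of 0.05 (log2 fold change 2.96, edgeR unadjusted p = 0.0182) and Map1b above it (0.16, edgeR unadjusted p = 0.0809), and 0 in place of 5 skeletal muscle markers were higher. The causes of these changes were not tested.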
